A study of Homo sapiens with 4 samples.

Results

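The genes described here are 55 genes of the NRF2 response and of glutathione metabolism, measured by RNA sequencing in PC9 cells and in osimertinib-resistant PC9OR cells. They comprised the regulators of NRF2, the enzymes that make and use glutathione, the thioredoxin and peroxiredoxin systems, aldo-keto and other reductases, NADPH producers and haem and iron genes. They were chosen by name, with earlier results of these libraries known, around *GPX2*, which had been singled out by its rise in PC9OR cells in these same libraries. The differences between the lines are therefore given for the 55 genes as a description, with no test of the list. Of the 55 genes, 54 were listed in at least 1 library and 52 were among the 13148 genes tested, out of 16813 genes listed in any library.

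PC9 is a lung adenocarcinoma line that depends on mutant EGFR, and osimertinib is an inhibitor of that kinase. The study held 2 groups of 2 libraries each, labelled as biological replicates. PC9 cells were the control phenotype and PC9OR cells the osimertinib-resistant phenotype, both with genotype given as WT and both grown in the same medium with fetal bovine serum. PC9OR is a single resistant line derived from a single parental line, so what accompanies resistance and what separates these 2 cultures for other reasons cannot be told apart. The spread between replicates is that of parallel samples of a line, not of independently derived lines.

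NRF2, encoded by *NFE2L2*, is a transcription factor that KEAP1 holds at a low level by directing its ubiquitination. Electrophiles and oxidants modify KEAP1, NRF2 then accumulates, pairs with a small MAF protein and binds antioxidant response elements (AREs) near its targets, whereas BACH1 competes for these elements. Because NRF2 is controlled mainly as a protein, the level of *NFE2L2* RNA does not by itself report its activity. Its targets supply glutathione, thioredoxin and NADPH, reduce quinones and carbonyls, conjugate electrophiles and export the conjugates. Glutathione peroxidases use glutathione to reduce hydrogen peroxide and lipid peroxides.

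The expected counts summed to between 23201307 and 32203998 per library. The biological coefficient of variation, the relative spread between libraries beyond counting error, was 0.241 between the PC9 libraries and 0.104 between the PC9OR libraries. The 2 PC9 libraries also differed along transcript length: across 11429 genes, the log2 difference of replicate 2 from replicate 1 had a Spearman rho of -0.461 with transcript length, against 0.001 for the PC9OR libraries and -0.406 for PC9OR against PC9. These are correlations across genes, which are not independent. The tested genes of the list were short, with a median transcript of 1694 bases against 2989 bases over all tested genes. Differences are therefore given both as fitted and after a length correction, in which a smooth curve of signal on transcript length was removed from each library. Part of any real difference that runs with length is removed with it. Of the cell type markers, *EPCAM* and the keratins *KRT7*, *KRT8*, *KRT18* and *KRT19* were high in every library (139 to 1762 FPKM), whereas the lung lineage markers *NKX2-1*, *NAPSA* and *SFTPB* lay between 0 and 0.17 FPKM. The summed epithelial list was 2576 and 2987 FPKM in PC9 cells and 5720 and 5511 FPKM in PC9OR cells, most of it the 4 keratins, all called higher. The epithelial cadherin *CDH1*, of the same list, went the other way, with 69.5 and 49.5 FPKM against 22.02 and 20.07 FPKM (log2 fold change -1.46), and was called lower. Fibroblast markers summed to at most 0.19 FPKM. Of the leukocyte markers, *CD68* had 6.36 and 5.12 FPKM in PC9 cells and 2.75 and 2.49 FPKM in PC9OR cells, *LYZ* was at most 0.59 FPKM, *PTPRC* at most 0.02 FPKM, and *CD3E* was at 0 in every library. The 4 endothelial markers summed to 6.51 and 4.10 FPKM against 0.88 FPKM in both PC9OR libraries, nearly all of it *CDH5*. Their part in the differences below was not tested.

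The starting point was *GPX2*, and the sequence before its transcription start is shown because it holds a match to the ARE core. The core was searched for as TGACNNNGC on both strands in RefSeq windows of 250 bases before to 50 bases after each start (GRCh38.p14). The 250 bases before the *GPX2* start lie at chr14:64942746-64942995 on the minus strand, and the capitals mark the match, which reads TGACTTAGC on the opposite strand:
GPX2 promoter: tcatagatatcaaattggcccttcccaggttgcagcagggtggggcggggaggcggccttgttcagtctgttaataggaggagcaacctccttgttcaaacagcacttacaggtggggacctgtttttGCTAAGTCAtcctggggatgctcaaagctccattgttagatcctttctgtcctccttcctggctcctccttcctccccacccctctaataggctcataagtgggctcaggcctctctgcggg
The match lies 122 to 114 bases before the start. A match was found in the windows of 15 genes of the list, and 8 of them are shown, chosen to span genes called higher, called lower and not called. Each is written along the strand that reads TGACNNNGC, with that core in capitals:
GPX2 (chr14:64942853-64942873): ccaggaTGACTTAGCaaaaac
GCLM (chr1:93909450-93909470): agacaaTGACTAAGCagaaat
TXNRD1 (chr12:104215674-104215694): gggctaTGACTTCGCtgttgt
ME1 (chr6:83431174-83431194): ctgccaTGACTCAGCgcttct
PIR (chrX:15493293-15493313): tcaccgTGACTCAGCgcttcg
GSTP1 (chr11:67583740-67583760): gcgccgTGACTCAGCactggg
KEAP1 (chr19:10502788-10502808): tcaccaTGACTAAGCagagcc
MAFF (chr22:38201866-38201886): cccgtaTGACCCCGCcccctg
The form TGACTCAGC in *ME1*, *PIR* and *GSTP1* also holds the AP-1 site TGANTCA. The sites of *GCLM*, *GPX2*, *KEAP1* and *MAFF* lie on the strand opposite to transcription within 250 bases before the start, that of *PIR* lies 26 to 34 bases after it, and those of *TXNRD1*, *ME1* and *GSTP1* lie before it.

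A window was found for 44 of the 55 genes, several with more than 1 start. The core was present in 16 of their 58 windows (27.6%), against 4687 of all 35116 windows (13.3%) and 14.5% of the windows of the tested genes. Of the genes marked as textbook NRF2 targets, 9 of 29 windows held it (31%), as did 7 of 29 windows of the others (24.1%). It was present in 2 of 13 windows of genes called higher in PC9OR cells, those of *GPX2* and *PIR*, and in 4 of 14 windows of genes called lower, those of *TXNRD1*, *ME1* and *MAFF*. No window was found for *AKR1B10*, *HMOX1*, *MGST2* and *SOD1*, called higher, or for *FTH1* and *SLC7A11*, called lower. Sequence beyond the windows was not searched, so a window without a match does not show that a gene lacks the core. A match in these letters is a description of the sequence and not a measured binding site.

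The glutathione peroxidases held both extremes of the list. *GPX2*, a selenium-dependent peroxidase of epithelia and a known NRF2 target, had 6.06 and 5.86 counts scaled to library size (CPM, per 1e6 counts) in the PC9 libraries and 123 and 117.0 CPM in the PC9OR libraries. Every PC9OR value lay far above both PC9 values, a 20.2-fold difference (log2 fold change 4.33 ± 0.127, SE, n = 2 against 2). *GPX2* lies at chr14:65405870-65409464 on the minus strand (GRCh37), and none of its transcript's 50-base words occurred in the transcripts of another gene. It was called higher in all 11 alternative analyses that kept every library, with log2 fold changes between 3.96 and 4.34. These analyses reuse the counts by which *GPX2* was singled out and are no independent support.

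*GPX3*, the secreted plasma peroxidase, had 27.8 and 19.7 CPM in PC9 cells and 3.75 and 3.03 CPM in PC9OR cells. It fell by 2.81 ± 0.256 on the log2 scale, the lowest value among the 52 tested genes. *GPX8*, a peroxidase of the endoplasmic reticulum, had 6.01 and 8.01 CPM in PC9 cells and 27.0 and 30.1 CPM in PC9OR cells, a rise of 2.02 ± 0.199 on the log2 scale. These 3 genes kept their calls in all 15 alternative analyses. They differ in transcript length from 1088 bases for *GPX2* to 3778 bases for *GPX8*, and with the length correction their log2 fold changes were 3.96, -2.97 and 2.19 for *GPX2*, *GPX3* and *GPX8*.

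*GPX1*, the cytosolic peroxidase, had 91.4 and 121.0 CPM in PC9 cells and 162.5 and 161.6 CPM in PC9OR cells (log2 fold change 0.61 ± 0.161). Its call as higher was lost with the length correction (0.28), and 61.2% of its 50-base words also occurred in other annotated transcripts, mostly pseudogenes. *GPX4*, which reduces lipid peroxides in membranes and guards against ferroptosis, had 201.8 and 267.6 CPM in PC9 cells and 255.0 and 238.2 CPM in PC9OR cells, so the lines overlapped. Its log2 fold change of 0.07 was not called and turned to -0.36, called lower, with the length correction. *GPX5*, *GPX6* and *GPX7* were listed in no library.

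Per unit of transcript length, *GPX2* made up 1.73% and 1.30% of the summed FPKM of the 5 detected peroxidases in the PC9 libraries and 20.9% and 20.8% in the PC9OR libraries. *GPX4* remained the most abundant peroxidase, with 68.8% and 70.7% of that sum in PC9 cells and 51.8% and 50.6% in PC9OR cells. The sum itself was 257.6 and 327.5 FPKM in PC9 cells and 430.4 and 401 FPKM in PC9OR cells.

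**Figure D1:**
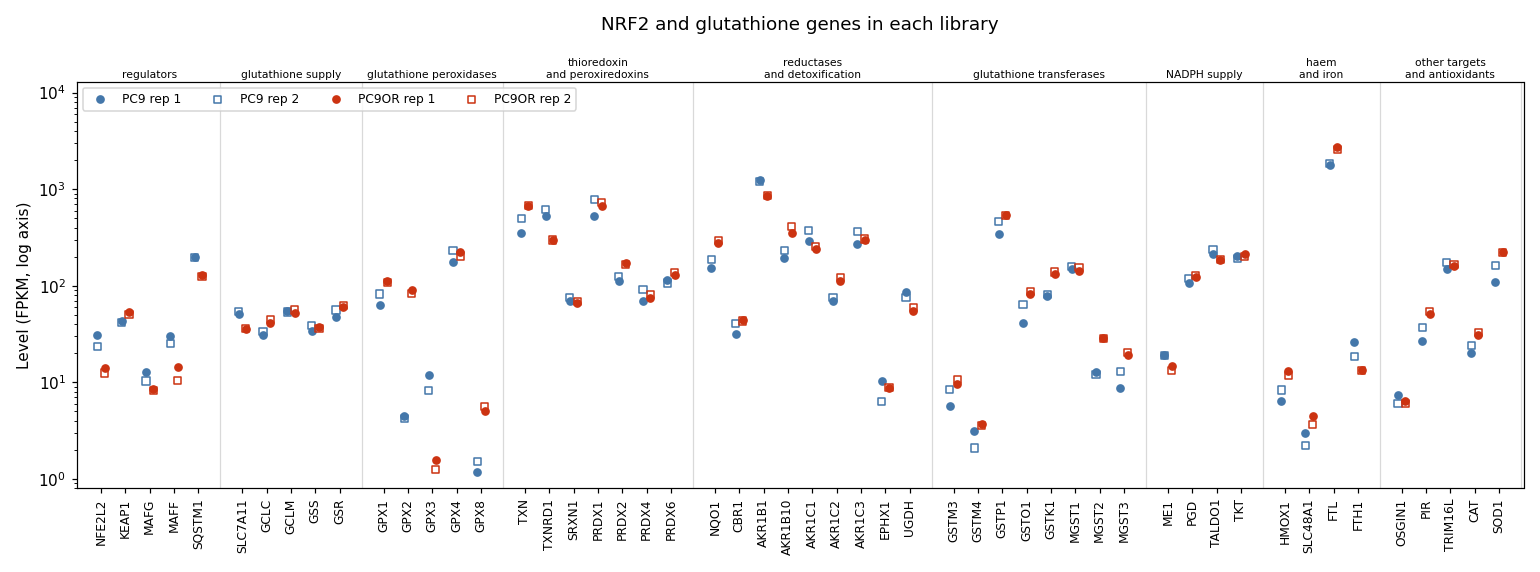
Level of each of the 52 tested genes in each library, in FPKM on a log axis, grouped by role, with blue for PC9 and red for PC9OR libraries and circles for replicate 1 and squares for replicate 2. *GPX2* moved from 4.24 and 4.45 FPKM to between 83.2 and 89.9 FPKM, whereas the genes outside the peroxidase group differed far less among the 4 libraries.

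The regulators gave no called rise. *NFE2L2* had 119.7 and 94.9 CPM in PC9 cells and 57.3 and 51.6 CPM in PC9OR cells, and it fell by 0.98 ± 0.156 on the log2 scale. Both PC9OR libraries lay below both PC9 libraries. *MAFF*, a small MAF partner of NRF2, had 96.5 and 83.8 CPM in PC9 cells and 47.8 and 35.9 CPM in PC9OR cells, and fell by 1.11 ± 0.179. *SQSTM1*, the autophagy receptor p62, which binds KEAP1 and is itself an NRF2 target, had 777.5 and 785.3 CPM against 515.3 and 507.6 CPM and fell by 0.61 ± 0.102. With the length correction these 3 genes stayed called lower, at -0.92, -1.13 and -0.55 for *NFE2L2*, *MAFF* and *SQSTM1*.

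*KEAP1*, which targets NRF2 for degradation, had 149.9 and 148.0 CPM in PC9 cells and 190.0 and 183.7 CPM in PC9OR cells. Its log2 fold change of 0.33 ± 0.10 lay just outside the threshold and was called higher with the length correction (0.33). *MAFG*, another small MAF, had 89.5 and 73.6 CPM against 61.3 and 59.8 CPM (-0.43 ± 0.137), also just outside the threshold, and its difference was -0.10 with the length correction.

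**Figure D2:**
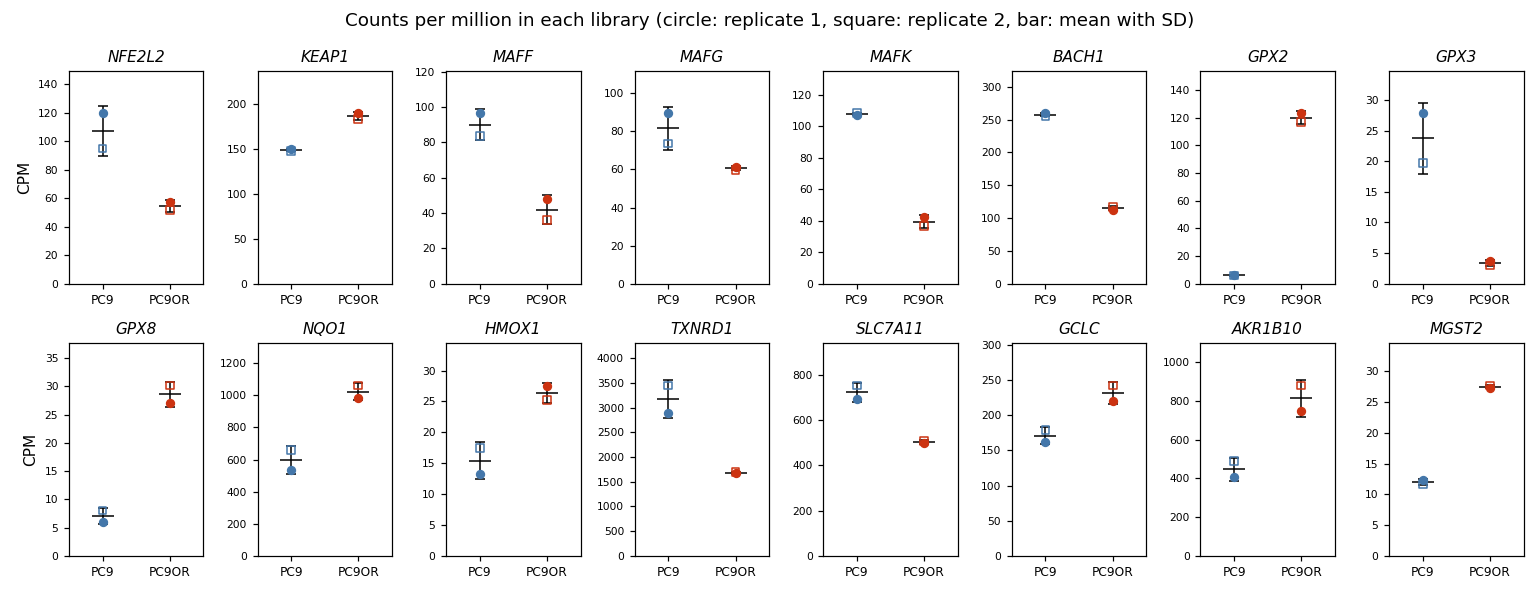
CPM in each library for 14 genes of the list and for the further regulators *MAFK* and *BACH1*, with circles for replicate 1, squares for replicate 2 and bars for the mean with its SD; the linear axes start at 0 and differ between genes. *NFE2L2*, *MAFF*, *MAFK* and *BACH1* lay lower in both PC9OR libraries, whereas *NQO1*, *GPX2* and *AKR1B10* lay higher.

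Among genes of glutathione supply, the differences went both ways. *GCLC*, the catalytic subunit of the enzyme that limits glutathione synthesis, had 162.4 and 179.5 CPM in PC9 cells and 220.5 and 242.3 CPM in PC9OR cells. It rose by 0.44 ± 0.117, just inside the threshold, and by 0.61 with the length correction. *GCLM*, the modifier subunit of the same enzyme, had 378.2 and 381.1 CPM against 376.0 and 409.5 CPM, so its libraries overlapped (log2 fold change 0.05).

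*SLC7A11*, the cystine carrier xCT, had 693.6 and 753.8 CPM in PC9 cells and 497.8 and 510.1 CPM in PC9OR cells. It fell by 0.52 ± 0.109, but its transcript of 9648 bases is the longest of the list, and with the length correction the value was 0.16 and no call was made. Glutathione synthetase (*GSS*) and glutathione reductase (*GSR*) were not called, at 0.05 and 0.28.

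In the thioredoxin and peroxiredoxin group, *TXNRD1* stood out. Thioredoxin reductase 1, a selenoprotein and a textbook NRF2 target, had 2896 and 3447 CPM in the PC9 libraries and 1668 and 1700 CPM in the PC9OR libraries. It fell by 0.91 ± 0.127 on the log2 scale, or by 0.72 with the length correction. Thioredoxin (*TXN*) had 370.8 and 521.7 CPM against 693.9 and 727.4 CPM and was called higher just inside the threshold (0.67 ± 0.187), but not with the length correction (0.22). Its transcript of 868 bases is among the shortest, and its PC9 replicates differed by more than the PC9OR replicates.

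*PRDX2*, a cytosolic peroxiredoxin, had 145.8 and 162.5 CPM against 223.9 and 219.0 CPM and was called higher (0.52), but lost that call with the length correction (0.13). *PRDX1* had 661.7 and 995.2 CPM in PC9 cells and 856.4 and 942.4 CPM in PC9OR cells, a spread in which the PC9 libraries enclosed both PC9OR libraries. Sulfiredoxin (*SRXN1*), which repairs overoxidised peroxiredoxins, had 252.4 and 279.2 CPM against 247.7 and 260.3 CPM (log2 fold change -0.07). Of its 50-base words, 90.5% were shared with an overlapping annotated gene, so its counts are uncertain. *PRDX4* and *PRDX6* were not called.

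Among the 9 reductase and detoxification genes, 3 were called higher and 2 lower, where 15.6% and 20.8% of all tested genes were. *NQO1*, which reduces quinones and is the most widely used NRF2 marker, had 534.7 and 659.6 CPM in PC9 cells and 984.3 and 1061 CPM in PC9OR cells. It rose 1.71-fold (0.78 ± 0.144), a difference well above the gap between replicates, and the length correction left it at 0.78. *AKR1B10*, an aldo-keto reductase that reduces retinal and lipid aldehydes, had 405.0 and 488.5 CPM against 746.1 and 879.6 CPM and rose by 0.86 ± 0.153 (0.67 with the length correction). Its close relative *AKR1B1*, aldose reductase, moved the other way, with 2313 and 2272 CPM in PC9 cells and 1617 and 1691 CPM in PC9OR cells. *AKR1B1* fell by 0.47 ± 0.101, and by 0.72 with the length correction.

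The 3 AKR1C genes, which encode steroid and carbonyl reductases, also differed from one another. *AKR1C2* had 297.5 and 331.0 CPM in PC9 cells and 491.1 and 529.4 CPM in PC9OR cells and rose by 0.70 ± 0.118. *AKR1C1* had 517.4 and 667.7 CPM against 431.8 and 465.6 CPM (-0.40 ± 0.158), not called without and called lower with the length correction (-0.66). *AKR1C3* had 419.3 and 573.6 CPM against 462.0 and 489.2 CPM (-0.06). These genes share sequence: 41.7%, 29.8% and 17.3% of the 50-base words of *AKR1C2*, *AKR1C1* and *AKR1C3* occurred in other transcripts, so the division of reads among them is uncertain. Their summed CPM was 1234 and 1572 in the PC9 libraries and 1385 and 1484 in the PC9OR libraries, which overlapped.

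*UGDH*, which makes UDP-glucuronic acid for conjugation, had 374.3 and 332.7 CPM in PC9 cells and 245.0 and 267.6 CPM in PC9OR cells and fell by 0.46 ± 0.120. *CBR1*, a carbonyl reductase, and *EPHX1*, microsomal epoxide hydrolase, were not called, at 0.29 and 0.12.

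**Figure D3:**
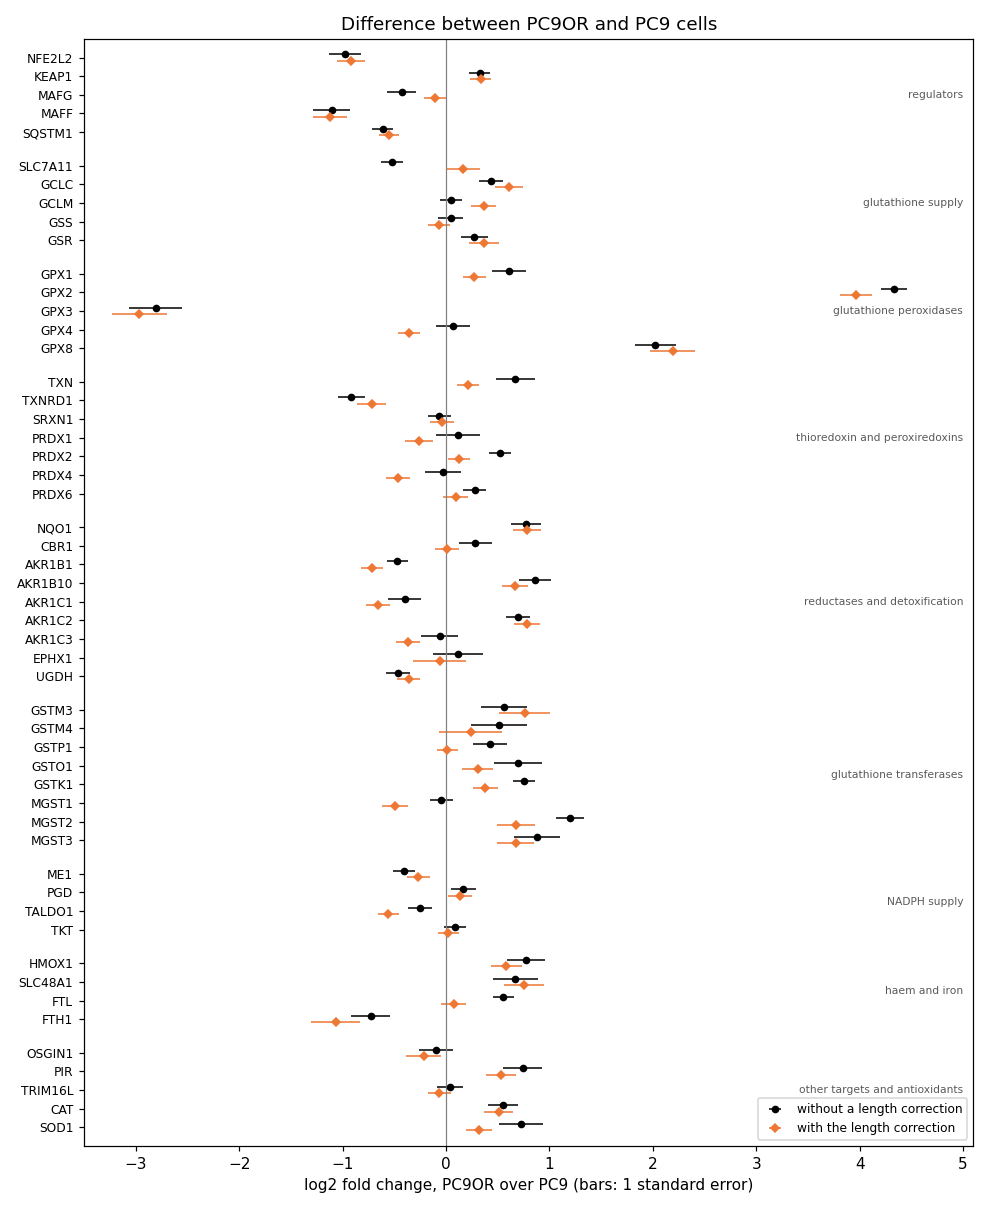
Log2 fold change of PC9OR over PC9 for the 52 tested genes, by role, without (black circles) and with (orange diamonds) the length correction; bars give 1 SE. *GPX2*, *GPX3* and *GPX8* stood apart from 0 under both, *NQO1*, *AKR1C2* and *MAFF* shifted little, and *SLC7A11*, *FTL* and *TXN* moved toward or across 0.

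Of the glutathione transferase group, 8 of 11 genes were tested and 3 were called higher, none lower, where 15.6% and 20.8% of all tested genes were. *MGST2*, a microsomal transferase, had 12.3 and 11.6 CPM in PC9 cells and 27.3 and 27.7 CPM in PC9OR cells. It rose by 1.202 ± 0.134, one of only 3 genes of the list called higher by more than 2-fold, and by 0.68 with the length correction, its transcript of 802 bases being the shortest of the list. With both length and GC content corrected the value was 0.58 and the call was lost. *MGST3* rose from 16.98 and 26.1 CPM to 38.0 and 41.4 CPM (0.88 ± 0.227), and *GSTK1*, the mitochondrial and peroxisomal transferase, from 107.4 and 111.3 CPM to 177.6 and 192.2 CPM (0.76 ± 0.107). With the length correction *GSTK1* was no longer called (0.38).

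The transferase with the highest FPKM, *GSTP1*, had 406.8 and 546.6 CPM in PC9 cells and 635.5 and 645.1 CPM in PC9OR cells. Its difference of 0.43 ± 0.168 was not called, and was 0.01 with the length correction. *GSTO1*, *GSTM3* and *GSTM4* had higher values in both PC9OR libraries but were not called, at 0.69, 0.56 and 0.51. *MGST1* overlapped between the lines without the correction (-0.05) and was called lower with it (-0.49). *GSTM1* was listed in no library, and *GSTM2* and *GSTA4* stayed at or under 0.344 CPM and were not tested.

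Of the 4 NADPH producers, 1 was called lower and none higher, where 20.8% and 15.6% of all tested genes were. *ME1*, cytosolic malic enzyme, had 92.5 and 92.3 CPM in PC9 cells and 72.4 and 66.8 CPM in PC9OR cells and fell by 0.41 ± 0.109, a call lost with the length correction (-0.27). The pentose phosphate enzymes *PGD*, *TALDO1* and *TKT* were not called, at 0.17, -0.25 and 0.09, and *TALDO1* was called lower with the length correction (-0.56).

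Haem and iron genes differed in direction. *HMOX1*, inducible haem oxygenase, was low at 13.3 and 17.5 CPM in PC9 cells and had 27.6 and 25.2 CPM in PC9OR cells, a rise of 0.78 ± 0.183 (0.58 with the length correction). *FTL*, the ferritin light chain and the gene with the highest FPKM of the list in both lines, had 1888 and 1954 CPM against 2854 and 2786 CPM and was called higher (0.55 ± 0.10). This call was lost with the length correction (0.07), and 19.4% of its words were shared with other transcripts. *FTH1*, the ferritin heavy chain, was listed at 40.9 and 29.4 CPM in PC9 cells and 21.1 and 21.3 CPM in PC9OR cells and fell by 0.73 ± 0.190. As 34.9% of its words were shared with pseudogenes of ferritin, its level is uncertain. *SLC48A1*, a haem transporter, lay just outside the threshold at 0.67 ± 0.217 and was called higher with the length correction (0.75).

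Among the remaining genes, *PIR*, an iron-binding nuclear protein and NRF2 target, rose from 53.9 and 75.4 CPM to 103.8 and 112.5 CPM (0.74 ± 0.187). Catalase (*CAT*) rose by 0.55 ± 0.145, from 61.2 and 76.0 CPM to 96.6 and 104.3 CPM. *SOD1*, cytosolic superoxide dismutase, had 129.7 and 195.6 CPM against 267.6 and 269.8 CPM and was called higher with an adjusted p at the threshold (0.72 ± 0.211) and was not called with the length correction (0.32). *OSGIN1*, a growth inhibitor and NRF2 target, had 19.1 and 15.8 CPM in PC9 cells and 16.5 and 16.0 CPM in PC9OR cells (-0.10), and *TRIM16L* had a difference of 0.04, with 51.7% of its words shared, mostly with *TRIM16*.

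Over the whole list, the quasi-likelihood test of edgeR, adjusted by the Benjamini-Hochberg method across the 13148 genes, called 17 of the 52 tested genes higher in PC9OR cells and 10 lower, at an adjusted p under 0.05, and 25 were not called. Of all tested genes, 15.6% were called higher and 20.8% lower. By more than 2-fold, 3 genes of the list were called higher, *GPX2*, *GPX8* and *MGST2*, and 2 lower, *GPX3* and *MAFF*, where 6.13% of all tested genes were called higher and 11.6% lower. Both PC9OR libraries lay above both PC9 libraries for 28 genes and below them for 13, against 39.6% and 38.2% of all tested genes. The median log2 fold change of the list was 0.22, with a range from -2.81 to 4.33, and that of all tested genes was 0.01. As the genes were selected on this comparison in part, nothing is read from these shares. Without PC9 replicate 2, 26 genes of the list and 3984 of all genes were called higher. Without PC9OR replicate 1, 4 genes of the list were called higher and 3 lower, with 580 and 1265 of all genes. Without PC9OR replicate 2, 3 were called higher and 1 lower, with 540 and 1232 of all genes. In both of these settings a single library was left in PC9OR, and the spread came from the 2 PC9 libraries alone.

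The genes marked as textbook NRF2 targets, all 30 of which were tested, comprised 9 called higher, 6 called lower and 15 not called, with a median log2 fold change of 0.10. The marks were set by hand and none of the glutathione transferases was marked, so these counts depend on that choice. Over all tested genes 15.6% were called higher and 20.8% lower, with a median of 0.01. Of these 30 genes, *GPX2* was the only one called higher by more than 2-fold, and none was called lower by more than 2-fold. The next highest values among those called higher were 0.86 for *AKR1B10*, 0.78 for *NQO1*, 0.78 for *HMOX1* and 0.74 for *PIR*. The 6 called lower were *TXNRD1*, *FTH1*, *SQSTM1*, *SLC7A11*, *UGDH* and *ME1*. Of the 22 tested genes of the list not marked as targets, 8 were called higher and 4 lower. NRF2 targets outside the list, described below, passed 2-fold in both directions. Of these, *IDH1* (1.30) and *ABCC4* (1.13) were called higher and *ABCC1* (-2.14) lower. The summed CPM of the 30 targets was 12900 and 14800 in the PC9 libraries and 13840 and 14370 in the PC9OR libraries, so the lines overlapped. Without *TXNRD1*, which was called lower, the sum was 10000 and 11350 CPM against 12180 and 12670 CPM. This sum still held *FTL*, at 1888 and 1954 CPM against 2854 and 2786 CPM, whose call as higher was lost with the length correction. As leaving out only a gene that fell raises the difference, no direction is read from it. The 55 genes together held between 1.77% and 1.96% of the counts of each library. A bulk library cannot tell a change in every cell from a change in the share of cells that carry a transcript.

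Transcript length moved with these differences. With the length correction, 13 of the 52 genes were called higher and 13 lower, of which 11 and 8 had the same call without it, and the median of the list was 0.08, against 0.08 over all tested genes. Of all tested genes, 20.1% were called higher and 18.4% lower with the correction. The 6 genes called higher that lost the call were *GSTK1*, *FTL*, *PRDX2*, *GPX1*, *TXN* and *SOD1*, with transcripts between 868 and 1152 bases. *SLC7A11* and *ME1* lost the call as lower, *KEAP1* and *SLC48A1* were then called higher, and *AKR1C1*, *TALDO1*, *GPX4*, *MGST1* and *PRDX4* lower. Among the 40 genes with transcripts shorter than that of the median tested gene, 14 were called higher and 6 lower without the correction and 9 and 11 with it. Over all tested genes, of any length, 15.6% were called higher and 20.8% lower without the correction. The share among all short tested genes was not computed, so nothing is read from the counts of these 40 genes. Of the marked NRF2 targets, 8 were called higher and 6 lower with the correction, and 7 and 4 had the same call under both.

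**Figure D4:**
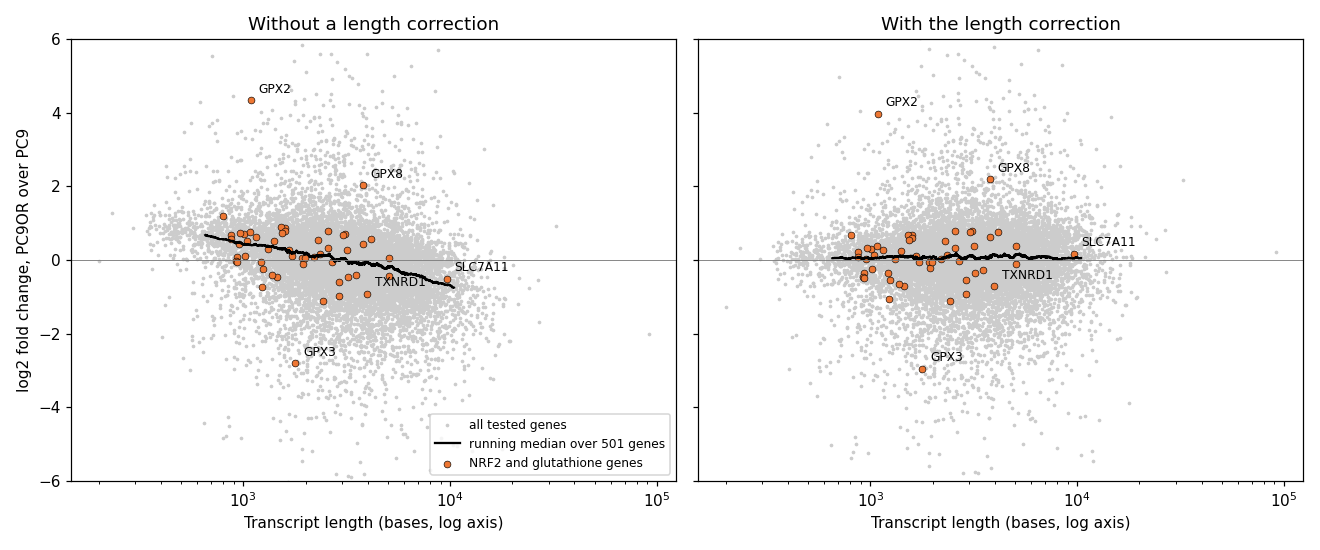
Log2 fold change of PC9OR over PC9 against transcript length in bases (log axis) for all tested genes (grey) and the 52 tested genes of the list (orange), without and with the length correction; the line is a running median over neighbouring genes. The running median falls with length on the left and is flat on the right, and *GPX2*, *GPX3* and *GPX8* stayed far from it in both; 132 genes on the left and 130 on the right lie beyond the plotted range of 6 in size.

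The replicates of the list differed more in PC9 than in PC9OR cells. The log2 difference of replicate 2 from replicate 1 had a median of 0.16 over the 52 genes in PC9 cells, ranged from -0.62 to 0.65 and exceeded 0.3 in size for 24 genes. In PC9OR cells the median was 0.05 and 1 gene exceeded 0.3. A difference between the lines of up to 0.65 on the log2 scale was thus no larger than that between PC9 replicates of some genes of the list.

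A list of 74 further genes of the same pathways was drawn from textbook knowledge, with earlier results of these data known, so its values too are a description and no independent check of the first list. Of these, 57 were tested, 12 were called higher in PC9OR cells and 10 lower, where 15.6% and 20.8% of all tested genes were. Their median log2 fold change was 0.05. With the length correction 10 were called higher and 13 lower, against 20.1% and 18.4% of all tested genes. Without PC9 replicate 2, 24 were called higher, with 3984 of all genes. Without PC9OR replicate 1, 5 were called higher and 4 lower, and without PC9OR replicate 2, 4 and 5, with 580 and 540 of all genes called higher and 1265 and 1232 lower.

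Among the further regulators, the repressor *BACH1* had 259.6 and 255.9 CPM in PC9 cells and 112.9 and 117.1 CPM in PC9OR cells and fell by 1.16 ± 0.101 (edgeR adjusted p = 0.005). *MAFK*, the third small MAF, had 107.2 and 108.2 CPM against 42.2 and 36.6 CPM and fell by 1.45 ± 0.124 (edgeR adjusted p = 0.00498). With the length correction the values were -0.78 for *BACH1*, which no longer passed 2-fold, and -1.33 for *MAFK*. *RBX1*, a subunit of the ubiquitin ligase that KEAP1 recruits, rose from 41.5 and 69.9 CPM to 106.2 and 117.4 CPM (1.00 ± 0.260, edgeR adjusted p = 0.038), a value that was 0.58 with the length correction. *CUL3* (-0.38, edgeR adjusted p = 0.0443) and *NFE2L1* (-0.52, edgeR adjusted p = 0.0393) were called lower. With the length correction they were not called, at 0.09 and -0.22. Of the 10 further regulators, 1 was called higher and 4 lower, where 15.6% and 20.8% of all tested genes were.

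The further list held 17 tested genes drawn as other NRF2 targets, of which 5 were called higher and 2 lower. Of all tested genes, 15.6% and 20.8% were. With the length correction 4 were called higher and 7 lower, against 20.1% and 18.4% of all tested genes. By more than 2-fold, 2 were called higher and 1 lower, where 6.13% and 11.6% of all tested genes were. The 4 ABCC genes among these targets, exporters of glutathione conjugates and related anions, differed in direction. *ABCC1* (MRP1) had 287.9 and 180.6 CPM in PC9 cells and 54.3 and 52.2 CPM in PC9OR cells and fell by 2.14 ± 0.244 (edgeR adjusted p = 0.00706). *ABCC4* (MRP4) had 14.2 and 12.7 CPM against 28.6 and 30.4 CPM and rose by 1.13 ± 0.139 (edgeR adjusted p = 0.00811). *ABCC2* (MRP2) had 144.6 and 129.2 CPM against 66.6 and 78.7 CPM and fell by 0.91 ± 0.136 (edgeR adjusted p = 0.0112), and *ABCC3* (MRP3) was not called (-0.05, edgeR adjusted p = 0.851); both were named after their values were seen, to complete the family. *IDH1*, the cytosolic NADP-dependent isocitrate dehydrogenase, rose from 157.9 and 209.4 CPM to 445.7 and 460.2 CPM (1.30 ± 0.165, edgeR adjusted p = 0.00846). The remaining targets of the further list called higher were *FECH* (0.97), *UGT1A6* (0.86, with 56.8% of its words shared) and *BLVRB* (0.66). With the length correction their values were 1.49, 0.71 and 0.19, and *BLVRB* was no longer called.

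Among the further transferases, *PTGES*, which makes prostaglandin E2, had 549.8 and 581.0 CPM in PC9 cells and 161.9 and 169.1 CPM in PC9OR cells and fell by 1.77 ± 0.109 (edgeR adjusted p = 0.00344). *GSTZ1*, of tyrosine breakdown, rose from 29.5 and 41.3 CPM to 72.9 and 72.0 CPM (1.03 ± 0.186, edgeR adjusted p = 0.016). *GSTO2* was low, at 1.92 and 3.19 CPM against 0.749 and 0.938 CPM, and fell by 1.60 ± 0.425 (edgeR adjusted p = 0.0403). With the length correction the values were -1.92 for *PTGES*, -1.95 for *GSTO2* and 0.76 for *GSTZ1*, which no longer passed 2-fold. Of glutathione pathway genes on chromosome 22, *GSTT1* and *GSTT2* were listed in no library, and *GSTT2B* and *GGT5* stayed at or under 0.219 CPM and were not tested. *GGT1*, a gamma-glutamyltransferase that starts glutathione breakdown, had 1.02 and 1.21 CPM against 0.937 and 0.969 CPM and was not called (-0.23, edgeR adjusted p = 0.656), with 79.3% of its words shared.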

How the data were processed

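Stranded RNA libraries of PC9 and PC9OR cells, 2 per line, were sequenced by the authors, who removed ribosomal, adapter and low-quality reads and mapped them to a gene reference. The submitters' processing notes name Bowtie2 2.2.5, RSEM 1.2.12 and build GRCh37. The deposited expected counts are the authors' RSEM estimates per gene and need not be whole. The deposited FPKM values are the authors' levels per kilobase of transcript and per depth. A gene not listed in a library was taken as 0. Reads that map to several transcripts are divided by RSEM, which makes genes with near-identical copies uncertain.

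Expected counts were rounded, joined by Entrez identifier and named with the reference gene table (99.7% matched). CPM used TMM-scaled library sizes throughout. Genes kept by filterByExpr were tested in edgeR 4.0.16 under R 4.3.3 (TMM, quasi-likelihood, no block), and a gene was called at an adjusted p under 0.05. Fold changes came from the same fit at the tool's default prior count. The script was tested on simulated counts. The study used DEGseq, which was not run here because it models pooled counts and the tool was missing. The length correction was an offset per library from a smooth curve of the log2 deviation of counts, with 0.5 added, on log2 transcript length, fitted to genes with at least 20 counts in every library (mgcv 1.9.3). Shared sequence was measured as the share of a transcript's 50-base words found in transcripts of other genes. Motif windows came from RefSeq (GRCh38.p14).

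The 55 genes and the further list were chosen with earlier results of these data known. Values per library are given for genes called by more than 2-fold, the regulators, the glutathione peroxidases and the targets *NQO1*, *HMOX1*, *GCLC*, *GCLM*, *TXNRD1*, *SRXN1*, *SLC7A11*, *OSGIN1* and the AKR1B and AKR1C genes, and for the other called genes and some uncalled ones of the list. Of the further list, genes called by more than 2-fold and those near a run of genes on chromosome 22 were named. The 2 other ABCC genes, the remaining NRF2 targets called higher and the regulators *CUL3* and *NFE2L1* were added after their values were seen. The labels gave no pairing of libraries by replicate number. The correlation of same-numbered deviations was 0.078, which with 2 libraries per line cannot exclude a pairing. DESeq2 1.42.0, limma 3.58.1, other scalings, filters, offsets, a block and leaving out each library were tried as alternatives.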

Additional observations from a re-analysis of the deposited data

How the results depend on the processing

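Across 11 alternatives that kept all 4 libraries, 17 of the 27 called genes of the list kept their call and 10 lost it in at least 1 (*SLC7A11*, *GPX1*, *TXN*, *PRDX2*, *AKR1B1*, *GSTK1*, *MGST2*, *ME1*, *FTL* and *SOD1*), and *GPX2*, *GPX3* and *GPX8* kept it in all 15 alternatives. With the replicate block, 20 genes of the list were called higher and 9 lower, 14 and 12 of the further genes, and 2593 and 2946 of all genes. The labels gave no pairing by replicate number, and with 2 numbers no call is read from this. With DESeq2's Wald test, 20 genes of the list were called higher and 12 lower, with 2439 and 3030 of all genes. With the length correction and the replicate block together, 3208 of all genes were called higher, against 2056. Leaving out each library in turn left 1 sample in a line, which was assumed to vary like the other line. Genes called then ranged from 3 to 26 higher and 1 to 14 lower for the list, from 4 to 24 and 4 to 15 for the further genes, and from 540 to 3984 and 1232 to 3978 for all genes, with the lowest counts without a PC9OR library, the less variable line.

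Direction turned for these log2 fold changes. With the length correction, without and with the replicate block, the values were 0.163 and 0.181 for *SLC7A11*, -0.069 and -0.067 for *GSS*, -0.357 under both for *GPX4*, -0.261 and -0.256 for *PRDX1*, -0.062 and -0.020 for *EPHX1* and -0.065 and -0.063 for *TRIM16L*. With length and GC corrected, they were 0.066 for *MAFG*, -0.306 for *GPX4*, -0.231 for *TXN*, 0.068 for *SRXN1*, -0.333 for *PRDX1* and -0.021 for *PRDX6*. Leaving out libraries gave -0.014 to 0.109 for *GCLM*, -0.058 to 0.135 for *GSS*, -0.123 to 0.271 for *GPX4*, -0.151 to 0.424 for *PRDX1*, -0.230 to 0.169 for *PRDX4*, -0.275 to 0.163 for *AKR1C3*, -0.188 to 0.463 for *EPHX1*, -0.119 to 0.025 for *MGST1*, -0.249 to 0.036 for *OSGIN1* and -0.081 to 0.140 for *TRIM16L*. The cause was not tested. Depth limited the genes under about 10 counts, which were not tested.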
